A study of Homo sapiens with 12 samples.

Results

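Molecular chaperones help other proteins fold, keep them soluble, assemble them into complexes and pass damaged ones on for degradation. HSP70 proteins bind exposed stretches of unfolded chains in a cycle that J-domain proteins (DNAJ) start and that HSP110 and BAG proteins help to complete by releasing nucleotide. HSP90 proteins act later, on kinases and steroid receptors that are nearly folded, and the chaperonins, TRiC in the cytosol and HSPD1 with HSPE1 in mitochondria, enclose a protein while it folds. After heat and other stress that unfolds proteins, the transcription factor HSF1 binds heat shock elements in the promoters of many of these genes and induces them. Gene symbols of these families selected 87 of the 19775 genes that have a probe set of their own on the array, through 199 probe sets, and 25 of the 87 had 1 probe set only. For each gene the probe set with the highest mean log2 signal over the 12 arrays was used, a rule that takes no difference between groups. The families themselves were chosen with earlier results of these data known. Of the 87 genes, 82 code for proteins and 5 are noncoding. Not all are cytosolic: HSPA9, HSPD1, HSPE1 and DNAJA3 work in mitochondria, and DNAJB11, DNAJC1, DNAJC3 and DNAJC10 in the endoplasmic reticulum (ER).

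The arrays came from SW13 cells, a line from a human adrenal cortical carcinoma that lacks BRG1, the ATPase of the SWI/SNF chromatin remodeling complex encoded by SMARCA4. There were 4 groups of 3 arrays: SW13+BRG1 cells (carrying pREP7 with BRG1) irradiated with UV, SW13+BRG1 cells mock-treated, SW13+vector cells (carrying pREP7 alone) irradiated with UV, and SW13+vector cells mock-treated. UV was given at 10 J/m2 and RNA was taken 6 h later. The methods describe a single stable line with BRG1 and a single one with the vector, so an effect of BRG1 and any other difference between these lines cannot be told apart, and the tests between lines measure the spread within each.

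The introduced BRG1 was not visible as more SMARCA4 mRNA on most probe sets. On the brightest SMARCA4 probe set the signals spanned 171 to 343 in SW13+BRG1 UV, 143 to 336 in SW13+BRG1 mock, 423 to 686 in SW13+vector UV and 314 to 920 in SW13+vector mock. Of 7 tested SMARCA4 probe sets, 1 was higher and 1 lower in SW13+BRG1 after UV, and 0 were higher and 2 lower without UV. The methods name the introduced copy as isoform C of BRG1. Where the probe sets lie on that isoform was not examined here, and BRG1 protein, which the study assayed by Western blot, was not analysed here. Every direction below is that of the arrays as labelled. Of 7 adrenal cortex markers with a probe set, 5 stayed below the filter on low signals. Array medians ran between 21.1 and 25.3. Correlations between arrays of log2 signals were 0.927 to 0.961 within groups and 0.788 to 0.935 between groups. PTPRC, a blood cell marker, averaged 6.77 ± 5.85 in SW13+BRG1 UV, 7.07 ± 1.31 in SW13+BRG1 mock, 118 ± 35.8 in SW13+vector UV and 123 ± 41.4 in SW13+vector mock (SD, n = 3), while CD3E and CD14 stayed below the filter, and its part in the results was not tested.

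Heat shock elements are rare in promoters, and 6 of the 77 selected genes with a promoter window in RefSeq (GRCh38.p14) carried a complete one, or 7.79%, against 166 of 27305 genes, or 0.608%. The window runs from 250 bases before a start site to 50 after it. The letters searched were GAA, any 2 bases, TTC, any 2 bases and GAA, or the reverse complement of these. The genes were DNAJA1, DNAJB6, HSP90AA1, HSP90AB1, HSPA6 and HSPD1. In DNAJA1 the element lies after the start site. The windows of HSPH1, HSPB1, HSPE1, DNAJB1 and BAG3 held no complete element. HSP90AB1 held 2 elements, and HSPD1 held 2 that overlap each other, in the window of 1 of its 2 start sites. The CCAAT box, searched as CCAAT and ATTGG, was in 39% of the selected genes and 39.7% of all genes. HSP90AA1 has 2 windows and HSP90AB1 has 3, of which 1 each holds an element, for HSP90AB1 that of the most downstream start. The 250 bases before these starts are shown for the stress-inducible and the constitutive HSP90 gene, and for HSPA6, an HSP70 gene known to be nearly silent without heat, with the heat shock elements in capitals. The HSP90AA1 stretch is chr14:102087045-102087294 on the minus strand, with its element starting 88 bases before the start site. That of HSP90AB1 is chr6:44247693-44247942 on the plus strand, with the first element starting 165 bases before. That of HSPA6 is chr1:161524290-161524539 on the plus strand, with the element starting 74 bases before.
HSP90AA1: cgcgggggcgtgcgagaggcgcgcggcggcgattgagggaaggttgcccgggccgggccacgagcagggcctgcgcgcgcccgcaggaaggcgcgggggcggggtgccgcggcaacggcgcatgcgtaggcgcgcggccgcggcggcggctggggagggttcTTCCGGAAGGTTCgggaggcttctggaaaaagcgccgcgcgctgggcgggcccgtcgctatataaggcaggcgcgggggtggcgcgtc
HSP90AB1: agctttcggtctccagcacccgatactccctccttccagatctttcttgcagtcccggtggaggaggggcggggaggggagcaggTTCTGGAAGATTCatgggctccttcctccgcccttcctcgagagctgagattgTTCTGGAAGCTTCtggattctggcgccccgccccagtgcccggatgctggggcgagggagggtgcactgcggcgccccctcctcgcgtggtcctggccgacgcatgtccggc
HSPA6: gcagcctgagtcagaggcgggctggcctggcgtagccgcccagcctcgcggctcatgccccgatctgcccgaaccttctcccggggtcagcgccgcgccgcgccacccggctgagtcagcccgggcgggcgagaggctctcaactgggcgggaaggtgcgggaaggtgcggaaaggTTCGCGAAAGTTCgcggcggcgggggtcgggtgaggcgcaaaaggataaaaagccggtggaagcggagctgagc

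A match is a description of letters only. HSPD1 and HSPE1 stand head to head on chromosome 2, HSPD1 from 197486584 to 197500274 and HSPE1 from 197500379 to 197503449, and the mitochondrial chaperonin and its lid are thus read from neighbouring start sites in opposite directions.

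Between the lines, 21 chaperone genes after UV and 23 in mock, among them HSP90, HSP110 and chaperonin genes, passed as lower in SW13+BRG1, and 10 and 7, mostly J-domain and BAG genes, as higher. Of the 87 genes 75 passed the filter, a signal at or above the array median on at least 3 arrays. Those below it, named only here, were HSF4, HSF5, HSPB2, HSPB3, HSPB7, HSPB9, CCT8L2, DNAJB7, DNAJB8, DNAJC5G and the noncoding DNAJB8-AS1 and HSPA2-AS1. A gene passed the test at a Benjamini-Hochberg adjusted p under 0.05 in limma, adjusted over all 13784 tested genes, and was called when its fold change was also above 2. After UV, 10 of the 75 genes passed as higher in SW13+BRG1 (background over all tested genes 16.4%) and 21 as lower (background 15.5%). In mock-treated cells 7 passed as higher (background 15.3%) and 23 as lower (background 13.2%). With the experiment number of the labels as a replicate block 11 passed as higher in mock, and the share over all tested genes was not counted for that fit. With the 2-fold threshold, 5 were called higher and 3 lower after UV, against backgrounds of 9.85% and 6.86%. In mock-treated cells 6 were called higher and 3 lower, against 9.38% and 5.27%. The share of lower genes was above the background without the fold threshold and below it with the threshold. The SW13+BRG1 and SW13+vector arrays did not overlap, with SW13+BRG1 higher or lower, in 12 and 23 genes after UV (background 23% and 22.4%) and in 14 and 23 genes in mock (background 21.6% and 19.7%). The median log2 fold change over the 75 genes was -0.16 after UV and -0.11 in mock, against -0.02 and 0.00 over all tested genes. Between the UV and the mock comparison, which share no arrays, 60 of 75 genes had the same sign, all 7 genes that passed as higher in mock were among the 10 after UV, and 20 of the 23 that passed as lower in mock were among the 21 after UV. The log2 fold changes of both comparisons correlated at 0.879 over the 75 genes and at 0.848 over all tested genes, whose shared signs were not counted. Fewer cells with a transcript and less of it per cell cannot be told apart in such bulk RNA.

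**Figure D1:**
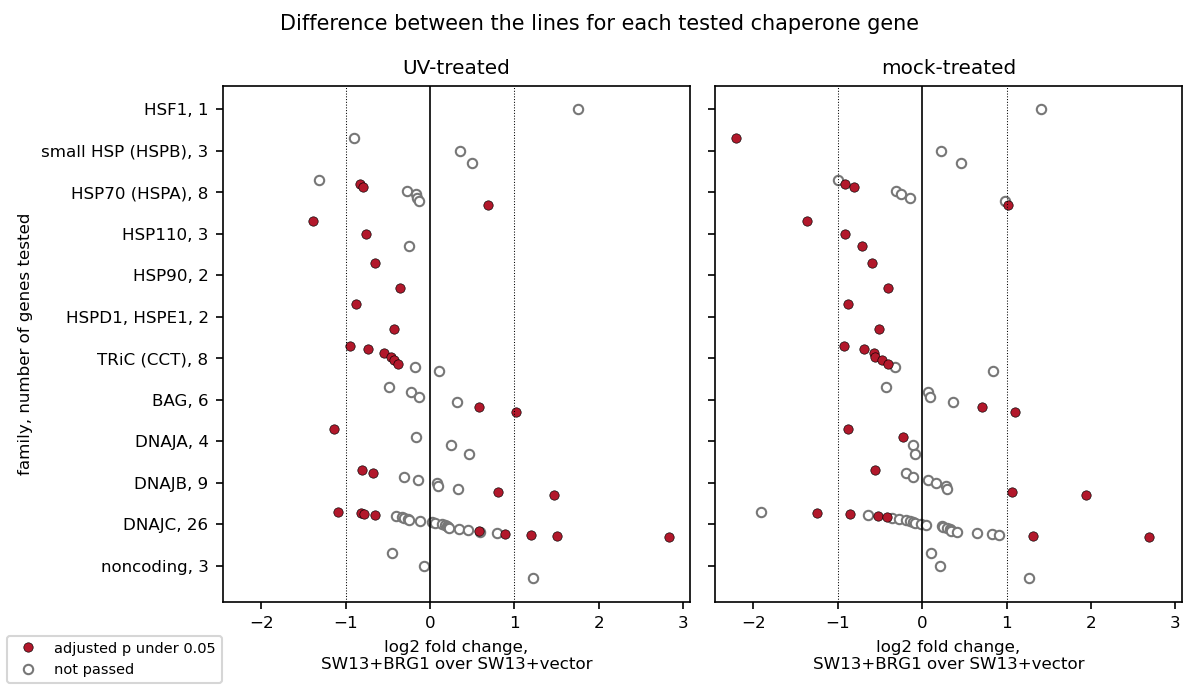
Log2 fold change of SW13+BRG1 over SW13+vector for each of the 75 tested genes, by family, in UV-treated (left) and mock-treated (right) cells. Each point is a gene, filled where the adjusted p was under 0.05, and dotted lines mark 2-fold. The HSP110, HSP90, HSPD1 with HSPE1 and TRiC genes that passed lie left of 0 in both panels, and the BAG genes that passed lie right of it.

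HSF1 itself did not pass in either comparison. Its signals were 57.8, 69.7 and 185 in SW13+BRG1 UV, 50.2, 56.2 and 122 in SW13+BRG1 mock, 24.4, 5.19 and 153 in SW13+vector UV, and 26.2, 5.68 and 124 in SW13+vector mock. The third array of every group was the highest and the groups overlapped. The log2 difference between lines was 1.75 ± 1.14 (SE) after UV and 1.41 ± 1.14 in mock, with adjusted p of 0.278 and 0.416 in limma. With the replicate block the adjusted p was 0.0378 after UV, which passes, and 0.0966 in mock. Without the arrays numbered 3, a choice made after seeing the data, it was 0.0296 after UV. HSF2, and the HSP70 genes HSPA1A and HSPA1B, the classical heat-induced pair, and HSPA8, the constitutive form, are not analysed here: the 3 probe sets of the pair and the 4 of HSPA8 are shared with other genes in the annotation of the array.

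HSPH1, the heat-inducible HSP110 that serves HSP70 as a nucleotide exchange factor, showed the clearest difference. Its signals were 638, 646 and 674 in SW13+BRG1 UV and 667, 610 and 736 in SW13+BRG1 mock. They were 1668, 1691 and 1762 in SW13+vector UV and 1643, 1848 and 1665 in SW13+vector mock. Each SW13+BRG1 array lay below each SW13+vector array, by a wide gap. HSPH1 was 2.61-fold lower in SW13+BRG1 after UV (log2 fold change -1.39 ± 0.10 SE, adjusted p = 3.3e-07) and 2.57-fold lower in mock (-1.36 ± 0.10, adjusted p = 4.36e-07). All 3 of its probe sets passed as lower in both comparisons. HSPA4, the constitutive HSP110, passed as lower as well, at -0.76 ± 0.15 after UV (adjusted p = 0.0018) and -0.91 ± 0.15 in mock (adjusted p = 0.000516). Its signals were 1579, 1665 and 1933 in SW13+BRG1 UV and 1288, 1363 and 1711 in SW13+BRG1 mock, against 2671, 2715 and 3382 in SW13+vector UV and 2440, 2460 and 3331 in SW13+vector mock. HSPA4L, the third of the family, passed as lower in mock only (-0.71 ± 0.18, adjusted p = 0.00811). After UV it stood at -0.25 ± 0.18 (adjusted p = 0.319), and the difference between these did not pass (adjusted p = 0.959).

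The HSP70 genes themselves split. HSPA9, the mitochondrial HSP70 (mortalin) that pulls proteins into the matrix, was lower in SW13+BRG1, at -0.80 ± 0.09 after UV and -0.80 ± 0.09 in mock (adjusted p = 1.15e-05 and 1.2e-05). Its signals were 2314, 2207 and 2204 in SW13+BRG1 UV and 1888, 1902 and 1977 in SW13+BRG1 mock, against 3781, 4028 and 3903 in SW13+vector UV and 3409, 3627 and 3051 in SW13+vector mock, with no overlap between lines. HSPA14, an HSP70 that works at the ribosome, also passed as lower on its brightest probe set (-0.83 ± 0.15 after UV, -0.92 ± 0.15 in mock), but its other 2 probe sets did not pass. HSPA2, known for its part in the formation of sperm, was higher in SW13+BRG1. Its signals were 723, 585 and 748 in SW13+BRG1 UV, 491, 521 and 555 in SW13+BRG1 mock, 425, 449 and 398 in SW13+vector UV, and 251, 260 and 263 in SW13+vector mock. The groups of the 2 lines did not overlap at either treatment, and HSPA2 was 1.61-fold higher after UV (0.69 ± 0.13, adjusted p = 0.000997) and 2.02-fold higher in mock (1.02 ± 0.13, adjusted p = 5.06e-05). HSPA6, whose promoter is shown above, was close to the array medians in every group, with means of 23 ± 15, 18.6 ± 9.33, 22.7 ± 1.56 and 21.8 ± 7.93 in SW13+BRG1 UV, SW13+BRG1 mock, SW13+vector UV and SW13+vector mock, and passed no test.

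Both cytosolic HSP90 genes were lower in SW13+BRG1, by less than 2-fold. HSP90AA1, the stress-inducible form, had signals of 9996, 9989 and 10321 in SW13+BRG1 UV and 8106, 8149 and 9149 in SW13+BRG1 mock, against 13476, 12242 and 13262 in SW13+vector UV and 11141, 10786 and 11606 in SW13+vector mock. The lines did not overlap at either treatment, and the difference was -0.36 ± 0.07 after UV (adjusted p = 0.00209) and -0.40 ± 0.07 in mock (adjusted p = 0.00112). HSP90AB1, the constitutive form, had signals of 5054, 5273 and 6672 in SW13+BRG1 UV and 4379, 4415 and 6595 in SW13+BRG1 mock, against 8528, 8089 and 10063 in SW13+vector UV and 7157, 7591 and 8160 in SW13+vector mock. The third array was the highest of each group. The difference was -0.66 ± 0.16 after UV (adjusted p = 0.00549) and -0.60 ± 0.16 in mock (adjusted p = 0.0105). The mock value missed the threshold in 5 of 26 alternatives. It did so without SW13+BRG1 mock replicate 1 (adjusted p = 0.0539) or replicate 2 (adjusted p = 0.0538). The others were the fit with no variance trend and the methods' t-test, with and without adjustment.

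Of 15 tested co-chaperones and partners of HSP90, 9 passed as lower in SW13+BRG1 and 0 as higher after UV, against backgrounds of 15.5% and 16.4%, and likewise 9 and 0 in mock, against 13.2% and 15.3%. The list, like the others below, was drawn up with earlier results of these data known. It had 12 genes below 0 in mock and 10 after UV, and its median was -0.46 after UV and -0.54 in mock, against -0.02 and 0.00 over all tested genes. CHORDC1, a partner of HSP90 and itself a target of HSF1, was the member called, at -1.13 ± 0.28 after UV (adjusted p = 0.00763) and -1.01 ± 0.28 in mock (adjusted p = 0.0157). STIP1, which hands clients on between HSP70 and HSP90, stood at -0.95 ± 0.13 after UV and -0.78 ± 0.13 in mock (adjusted p = 9.77e-05 and 0.000526).

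Both genes of the mitochondrial chaperonin and 6 of 8 tested TRiC genes passed as lower in SW13+BRG1, against backgrounds of 15.5% after UV and 13.2% in mock. HSPD1 (HSP60) had signals of 8525, 8280 and 10580 in SW13+BRG1 UV and 6972, 6847 and 7671 in SW13+BRG1 mock, against 13070, 11018 and 12707 in SW13+vector UV and 9890, 9850 and 11004 in SW13+vector mock. Its lid HSPE1 (HSP10) had signals of 2651, 3021 and 3535 in SW13+BRG1 UV and 2136, 2272 and 2722 in SW13+BRG1 mock, against 5311, 5235 and 6253 in SW13+vector UV and 4073, 4203 and 4770 in SW13+vector mock. Neither gene overlapped between lines at either treatment. The log2 difference of HSPD1 was -0.43 ± 0.10 after UV and -0.52 ± 0.10 in mock (adjusted p = 0.00633 and 0.00217). HSPE1, its neighbour on the chromosome, had -0.87 ± 0.13 and -0.88 ± 0.13 (adjusted p = 0.00015 and 0.000169). Of the 8 tested TRiC genes, the cytosolic chaperonin that folds actin and tubulin, 6 passed as lower in both comparisons, with log2 fold changes from -0.38 (CCT4) to -0.94 (CCT6A) after UV and from -0.40 (CCT4) to -0.93 (CCT6A) in mock. The others were CCT2, CCT5, CCT7 and CCT8. HSPD1 and CCT4 missed the threshold in both comparisons when the probe sets of a gene were averaged. After UV, 4 of 26 alternatives lost HSPD1, 4 lost CCT4 and 3 lost CCT7. CCT3 stood at -0.18 ± 0.16 after UV and -0.32 ± 0.16 in mock and did not pass, and CCT6B, a form known from testis, was dim, with group means of 66.5 ± 23.7 in SW13+BRG1 UV, 58.1 ± 16.2 in SW13+BRG1 mock, 59.3 ± 8.25 in SW13+vector UV and 33.9 ± 13.6 in SW13+vector mock. CCT6A had signals of 1641, 1714 and 1808 in SW13+BRG1 UV and 1757, 1592 and 1630 in SW13+BRG1 mock, against 3326, 3267 and 3335 in SW13+vector UV and 3404, 3100 and 2974 in SW13+vector mock. TCP1, the remaining TRiC subunit, has no probe set of its own in this annotation and is not analysed here.

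**Figure D2:**
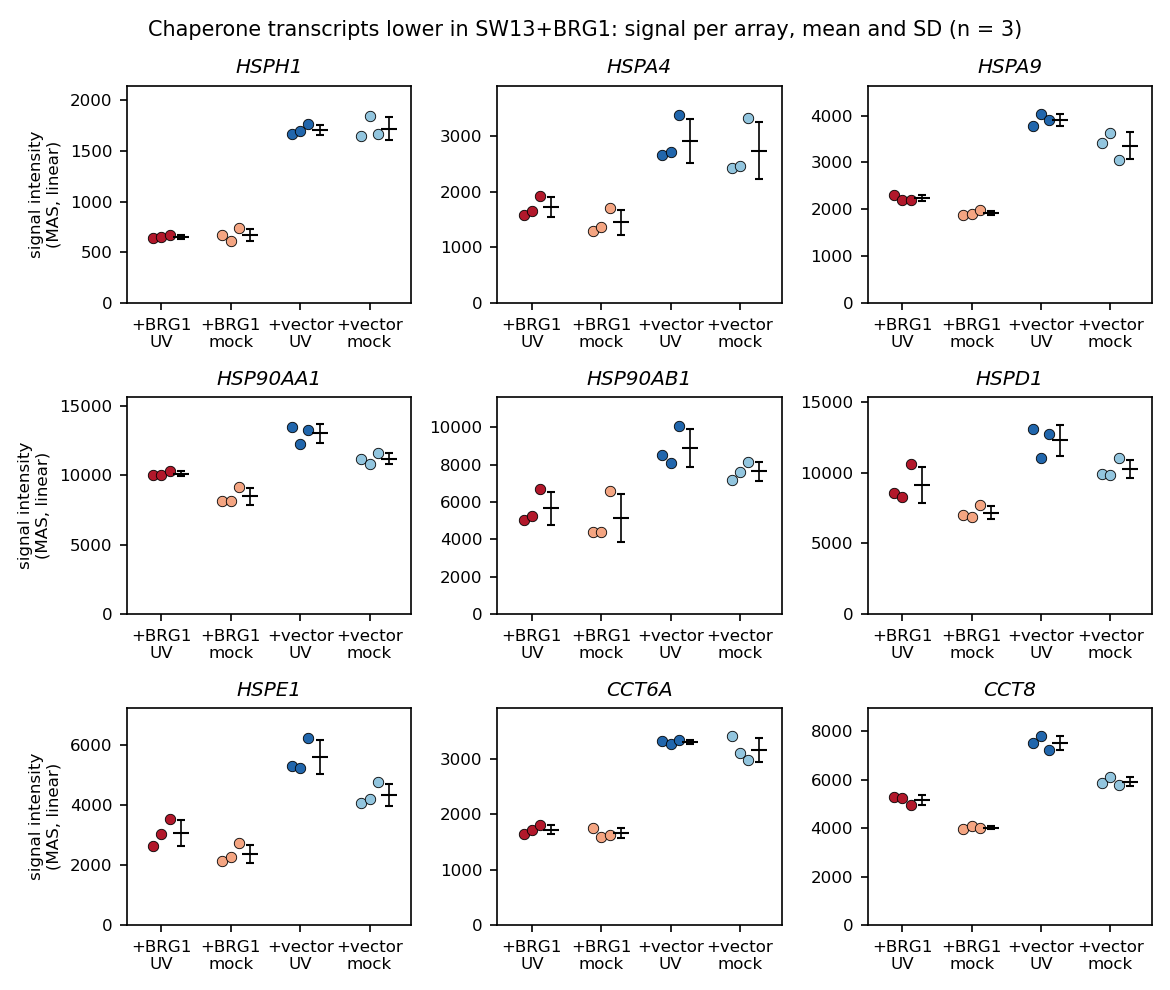
Signal intensity per array (linear scale from 0) for 9 chaperone genes in the 4 groups, with the mean and SD of 3 arrays beside the points. For each gene the SW13+BRG1 arrays lie below the SW13+vector arrays of the same treatment. HSPH1 has 638 to 736 in SW13+BRG1 and 1643 to 1848 in SW13+vector.

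Prefoldin delivers new chains to TRiC. Of 6 tested genes of prefoldin and TRiC partners, 2 passed as higher (PFDN1 and PFDN5) and 2 as lower (PFDN2 and VBP1) in SW13+BRG1 in both comparisons, against the same backgrounds. PFDN1 was called after UV at 1.03 ± 0.14 (adjusted p = 8.6e-05) and stood just under 2-fold in mock at 0.98 ± 0.14 (adjusted p = 0.00015). Of 9 tested genes for protein quality control in mitochondria, 5 passed as lower after UV (background 15.5%) and 3 in mock (background 13.2%), and 0 as higher in either. TRAP1, which passed as lower in both comparisons, is also counted among the co-chaperones and partners of HSP90 above. GRPEL1, the nucleotide exchange factor of HSPA9, was called lower in mock (-1.02 ± 0.16, adjusted p = 0.000269) and passed below 2-fold after UV (-0.67 ± 0.16, adjusted p = 0.00518). Its paralog GRPEL2 (-1.09 ± 0.20, adjusted p = 0.000761) and the unfoldase CLPX (-1.27 ± 0.25, adjusted p = 0.00133) were called lower after UV. Of 10 tested ER chaperones, 2 passed as higher and 3 as lower after UV, against backgrounds of 16.4% and 15.5%. In mock 1 and 3 passed, against 15.3% and 13.2%, and none was called.

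Brightness ran with these differences. Among the 1379 brightest of the 13784 tested genes, by mean log2 signal, were 22 of the 75 chaperone genes, and of these 16 passed as lower in SW13+BRG1 after UV and 17 in mock. Over all 1379 of these genes, 26% passed as lower after UV and 28.6% in mock. The median log2 fold change of the 22 was -0.51 after UV and -0.54 in mock, against -0.06 and -0.11 over the 1379. Of the other 53 chaperone genes 5 passed as lower after UV and 6 in mock, and 9 and 7 as higher. Over all tested genes outside the brightest 1379, 14.4% passed as lower after UV and 11.5% in mock, and 16.1% and 15.5% as higher.

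The small heat shock proteins, which hold unfolded chains without ATP, were mostly dim: 3 of 7 passed the filter. HSPB1 (HSP27) was bright, with 4404, 4508 and 5001 in SW13+BRG1 UV, 2866, 2937 and 3917 in SW13+BRG1 mock, 3227, 3324 and 4410 in SW13+vector UV, and 2333, 2549 and 3508 in SW13+vector mock. The lines overlapped, and the difference was 0.36 ± 0.17 after UV and 0.22 ± 0.17 in mock (adjusted p = 0.129 and 0.384). With the replicate block both passed (adjusted p = 0.00107 and 0.0238). HSPB8, a partner of BAG3 in the removal of aggregates, was called lower in mock on dim signals. They were 21.3, 3.08 and 4.19 in SW13+BRG1 mock, all below the array medians, and 29.3, 30.6 and 29.8 in SW13+vector mock, above them. Of the mock arrays, only those of SW13+vector thus counted toward the filter. The filter could favour the direction of this test, and neither a fold nor an adjusted p is given for it. HSPB8 is included in the counts of genes lower in SW13+BRG1 in mock above. It missed the threshold in 18 of 26 alternatives, among them the leaving out of any of 9 arrays. These arrays were SW13+BRG1 UV replicate 1, SW13+BRG1 mock replicates 2 and 3, and the 6 SW13+vector arrays. The other probe set of HSPB8 stood at -0.13 ± 0.68.

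Of 6 tested BAG genes, whose proteins release the substrate of HSP70, 2 passed as higher in SW13+BRG1 and 0 as lower in each comparison, against backgrounds of 16.4% and 15.5% after UV and 15.3% and 13.2% in mock. BAG2, an inhibitor of the ubiquitin ligase STUB1 (CHIP), had signals of 1051, 1043 and 880 in SW13+BRG1 UV and 1426, 1463 and 1258 in SW13+BRG1 mock, against 508, 481 and 474 in SW13+vector UV and 700, 732 and 522 in SW13+vector mock. The lines did not overlap. BAG2 was 2.03-fold higher after UV (1.02 ± 0.14, adjusted p = 8.6e-05) and 2.14-fold higher in mock (1.10 ± 0.14, adjusted p = 5.31e-05), while its 2 dimmer probe sets did not pass. BAG3, a heat-inducible member that links HSP70 to autophagy, had 1237, 1228 and 1177 in SW13+BRG1 UV and 1171, 1217 and 1391 in SW13+BRG1 mock, against 842, 760 and 831 in SW13+vector UV and 811, 735 and 765 in SW13+vector mock. It was 1.5-fold higher after UV (0.58 ± 0.10, adjusted p = 0.000677) and 1.63-fold higher in mock (0.71 ± 0.10, adjusted p = 0.000171). The other 4 BAG genes did not pass in either comparison.

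Of 39 tested J-domain genes, the largest family, 7 passed as higher and 7 as lower in SW13+BRG1 after UV, against backgrounds of 16.4% and 15.5%, and 4 and 7 in mock, against 15.3% and 13.2%. These shares were near the background or, for higher genes in mock, below it. DNAJB4, a cytosolic partner of HSP70, had signals of 587, 592 and 394 in SW13+BRG1 UV and 787, 778 and 536 in SW13+BRG1 mock, against 177, 235 and 154 in SW13+vector UV and 249, 208 and 113 in SW13+vector mock. It was 2.77-fold higher after UV (1.47 ± 0.29, adjusted p = 0.00137) and 3.83-fold higher in mock (1.94 ± 0.29, adjusted p = 0.000192). DNAJB5, of the same class, was called higher in mock (1.06 ± 0.28, adjusted p = 0.0104). After UV it passed at 0.81 ± 0.28 (adjusted p = 0.0389), a result that 12 of 26 alternatives lost.

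DNAJC12, which assists the folding of the aromatic amino acid hydroxylases, was called higher in SW13+BRG1 in both comparisons on dim signals. They were 83.4, 60 and 39 in SW13+BRG1 UV and 70.4, 78.5 and 42.2 in SW13+BRG1 mock, against 4.97, 20.1 and 5.46 in SW13+vector UV and 16.3, 3.33 and 16.1 in SW13+vector mock. All SW13+vector values lay below the array medians, so the gene passed the filter through its SW13+BRG1 arrays. The filter thus favoured the direction of its test, and neither a fold nor an adjusted p is given. DNAJC12 is included in the counts of genes higher in SW13+BRG1 above. DNAJC4, a mitochondrial J protein, had signals of 609, 627 and 812 in SW13+BRG1 UV and 401, 421 and 498 in SW13+BRG1 mock, against 251, 221 and 246 in SW13+vector UV and 141, 159 and 244 in SW13+vector mock. It was 2.83-fold higher after UV (1.5 ± 0.20, adjusted p = 7.07e-05) and 2.48-fold higher in mock (1.31 ± 0.20, adjusted p = 0.000238), and 3 of its 4 tested probe sets passed as higher in each comparison. DNAJC5, the cysteine string protein of secretory vesicles, was called higher after UV at 1.19 ± 0.33 (adjusted p = 0.0146). That call was lost without SW13+BRG1 UV replicate 3 (adjusted p = 0.0592) or SW13+vector UV replicate 1 (adjusted p = 0.0705).

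Among the J-domain genes that were lower, DNAJA3 (Tid1), the partner of HSPA9 in mitochondria, had signals of 565, 494 and 560 in SW13+BRG1 UV and 799, 835 and 845 in SW13+BRG1 mock, against 1125, 1144 and 1302 in SW13+vector UV and 1465, 1501 and 1585 in SW13+vector mock. No array of one line reached the other at the same treatment, and DNAJA3 was 2.21-fold lower after UV (-1.14 ± 0.10, adjusted p = 2.6e-06) and 1.83-fold lower in mock (-0.88 ± 0.10, adjusted p = 3.05e-05). DNAJC2, which sits at the ribosome with HSPA14, was 2.13-fold lower after UV (-1.09 ± 0.17, adjusted p = 0.000213) and 1.81-fold lower in mock (-0.85 ± 0.17, adjusted p = 0.00159). DNAJC6 (auxilin), which uncoats clathrin vesicles, was 2.37-fold lower in mock (-1.25 ± 0.19, adjusted p = 0.000308) and 1.76-fold lower after UV (-0.82 ± 0.19, adjusted p = 0.00565). DNAJB11, the ER partner of HSPA5, passed as lower below 2-fold (-0.67 ± 0.09 after UV, -0.55 ± 0.09 in mock), as did DNAJC9, a histone chaperone (-0.79 and -0.52), and DNAJC19, of the mitochondrial import motor (-0.65 and -0.41). The mock result of DNAJC9 was lost in 16 of 26 alternatives, with values as small as -0.04, and that of DNAJC19 in 8 of 26. DNAJB12, an ER membrane protein, passed as lower after UV alone (-0.81), and DNAJC30 (0.89) and DNAJC1 (0.58) as higher after UV alone. Of 26 alternatives, 8 lost the result of DNAJC1 and 2 each those of DNAJB12 and DNAJC30, averaging of probe sets among them for all of these genes. DNAJB1 and DNAJA1 are both heat-inducible. DNAJB1 had group means of 771 ± 30 in SW13+BRG1 UV, 850 ± 106 in SW13+BRG1 mock, 618 ± 110 in SW13+vector UV and 693 ± 63 in SW13+vector mock, with differences of 0.33 ± 0.14 after UV and 0.29 ± 0.14 in mock (adjusted p = 0.0917 and 0.151), both of which passed with the replicate block (adjusted p = 0.00829 and 0.0192). DNAJA1 stood at -0.17 ± 0.08 after UV (adjusted p = 0.102, or 0.0188 with the replicate block) and -0.23 ± 0.08 in mock (adjusted p = 0.0394), the second of which 16 of 26 alternatives lost.

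**Figure D3:**
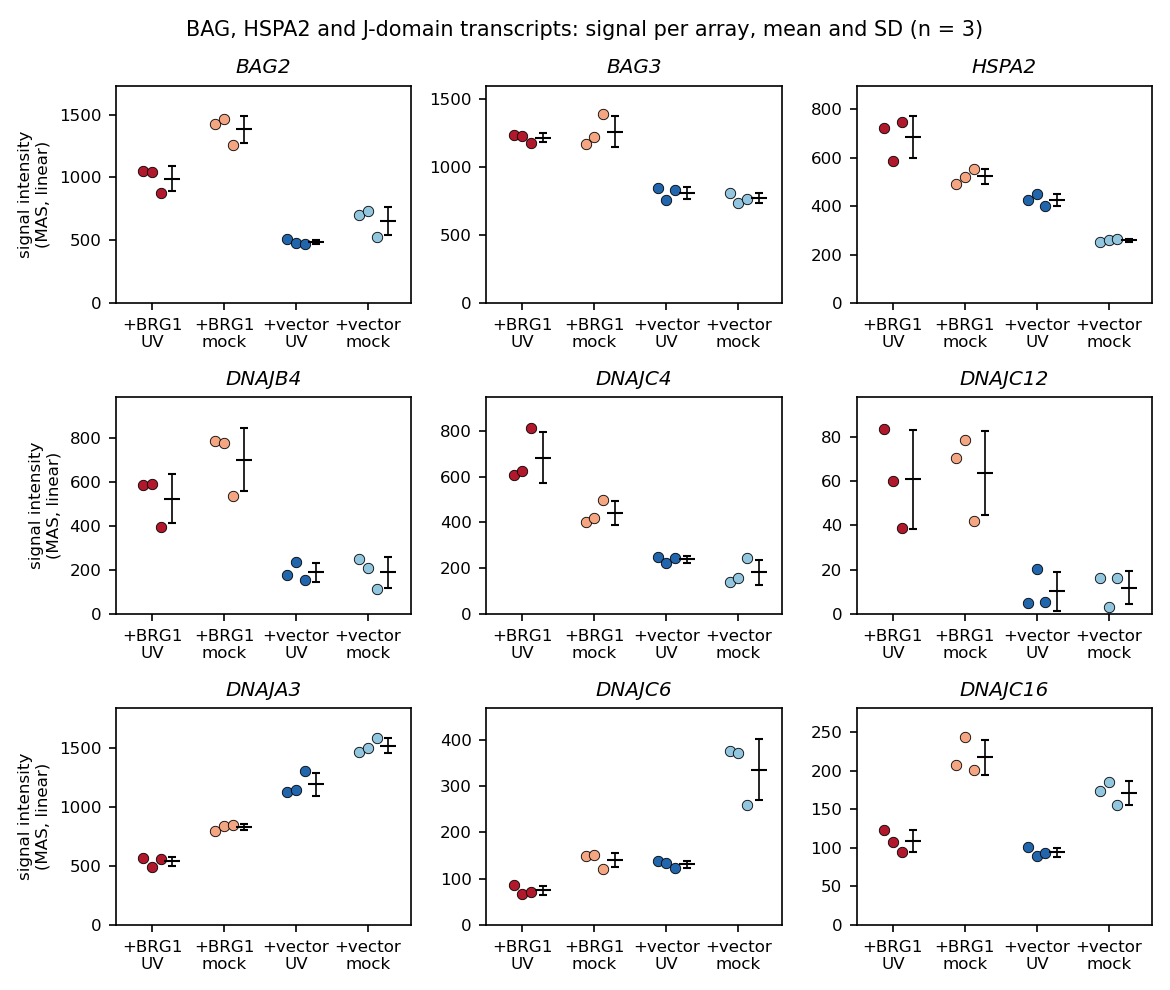
Signal intensity per array (linear scale from 0) for BAG2, BAG3, HSPA2 and 6 J-domain genes in the 4 groups, with the mean and SD of 3 arrays beside the points. BAG2, BAG3, HSPA2, DNAJB4, DNAJC4 and DNAJC12 lie higher in SW13+BRG1, DNAJA3 and DNAJC6 lower. DNAJC6 has 67.7 to 85.8 in SW13+BRG1 UV, 122 to 150 in SW13+BRG1 mock, 122 to 138 in SW13+vector UV and 259 to 376 in SW13+vector mock.

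The genes with a heat shock element in their promoter window, side by side, had differences between the lines after UV of -0.17 (DNAJA1), 0.08 (DNAJB6), -0.36 (HSP90AA1), -0.66 (HSP90AB1), -0.28 (HSPA6) and -0.43 (HSPD1). In mock they were -0.23, 0.28, -0.40, -0.60, -0.31 and -0.52 in the same order, of which those of HSP90AA1, HSP90AB1, HSPD1 and, in mock, DNAJA1 passed. Of 9 other tested targets of heat shock factor, 2 passed as higher and 3 as lower in SW13+BRG1 in each comparison, against backgrounds of 16.4% and 15.5% after UV and 15.3% and 13.2% in mock. The 3 lower genes, CHORDC1, FKBP4 and STIP1, are also among the 9 co-chaperones of HSP90 above. IER5, an early response gene that activates HSF1, was the one called higher, at 2.09 ± 0.16 in mock (adjusted p = 4.2e-07), and it passed at 0.82 ± 0.16 after UV (adjusted p = 0.00118). SERPINH1 (HSP47), the collagen chaperone, passed as higher at 0.65 ± 0.19 after UV and 0.80 ± 0.19 in mock (adjusted p = 0.0155 and 0.00526).

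None of the 75 tested chaperone genes was called higher 6 h after UV. HSPA1A, HSPA1B and HSPA8 were not among them. The largest log2 fold changes, 1.67 in SW13+BRG1 and 1.04 in SW13+vector, were above 2-fold but did not pass. In SW13+BRG1 cells 0 of the 75 genes were called higher (background 0.609%) and 1 lower (background 6.57%). In SW13+vector cells 0 were called higher (background 0.66%) and 1 lower (background 4.16%). The methods' t-test without adjustment gave 0 higher above 2-fold in either line as well. Without the fold threshold, 10 passed as higher and 6 as lower in SW13+BRG1, against backgrounds of 8.03% and 11.8%, and 5 and 3 in SW13+vector, against 5.56% and 8.48%. UV and mock arrays did not overlap, with UV higher or lower, in 17 and 8 genes in SW13+BRG1 (background 17.3% and 20%) and in 18 and 6 genes in SW13+vector (background 15% and 17.3%). HSPH1 changed by -0.04 ± 0.10 in SW13+BRG1 and -0.01 ± 0.10 in SW13+vector, BAG3 by -0.05 ± 0.10 and 0.07 ± 0.10, DNAJB1 by -0.14 ± 0.14 and -0.18 ± 0.14, and HSPA6 by 0.15 ± 0.65 and 0.12 ± 0.65, none of which passed.

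The genes that passed as higher after UV were mostly chaperonins and other bright genes, with small changes. In SW13+BRG1 they were CCT2, CCT4, CCT7, CCT8, HSPD1, HSP90AA1, DNAJA1, HSPB1, HSPA2 and DNAJC4, and in SW13+vector CCT2, CCT4, CCT8, HSPA2 and DNAJB11. All 8 tested TRiC genes had a log2 fold change above 0 in both lines, with medians of 0.29 in SW13+BRG1 and 0.27 in SW13+vector, but the direction depended on the scaling of the arrays. After quantile normalization 6 of the 8 lay below 0 in each line, with medians of -0.07 and -0.04, and with scaling to the hybridization controls 7 lay below 0 in SW13+BRG1 and 3 in SW13+vector, with medians of -0.10 and 0.01. That second scaling moved the median of all tested genes to -0.36 in SW13+BRG1 and -0.23 in SW13+vector. In the signals as deposited, the 1379 brightest genes had a median UV effect of 0.36 in SW13+BRG1 and 0.30 in SW13+vector, against -0.02 and -0.03 for the other genes. The 22 chaperone genes among them stood at 0.25 and 0.23. CCT8 had signals of 5288, 5255 and 4946 after UV and 3944, 4069 and 4003 after mock in SW13+BRG1, and 7529, 7801 and 7232 after UV and 5878, 6111 and 5770 after mock in SW13+vector. Its UV effect was 0.37 ± 0.07 (adjusted p = 0.00296) and 0.35 ± 0.07 (adjusted p = 0.00664) in these signals, and -0.07 and -0.00218 after quantile normalization. No share over all tested genes was counted for the replicate block. With it 19 genes passed as higher in SW13+BRG1, and 20 as higher and 6 as lower in SW13+vector. The named genes it added were HSPE1 in both lines (adjusted p = 0.000249 and 0.000431) and, in SW13+vector, HSPD1, DNAJA1, HSPB1 and HSP90AA1 (adjusted p = 0.00725, 0.0149, 0.00115 and 0.00431). The counts also moved with single arrays. In SW13+BRG1 the 10 genes became 6 without SW13+BRG1 UV replicate 2, 3 without SW13+BRG1 UV replicate 3, 2 without SW13+BRG1 mock replicate 1 and 1 without SW13+BRG1 mock replicate 2. In SW13+vector the 5 became 8 without SW13+BRG1 mock replicate 3, 2 without SW13+vector UV replicate 1, and 3 without any 1 of SW13+BRG1 UV replicates 1 and 2, SW13+BRG1 mock replicates 1 and 2, SW13+vector UV replicates 2 and 3, and SW13+vector mock replicates 1 and 2.

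**Figure D4:**
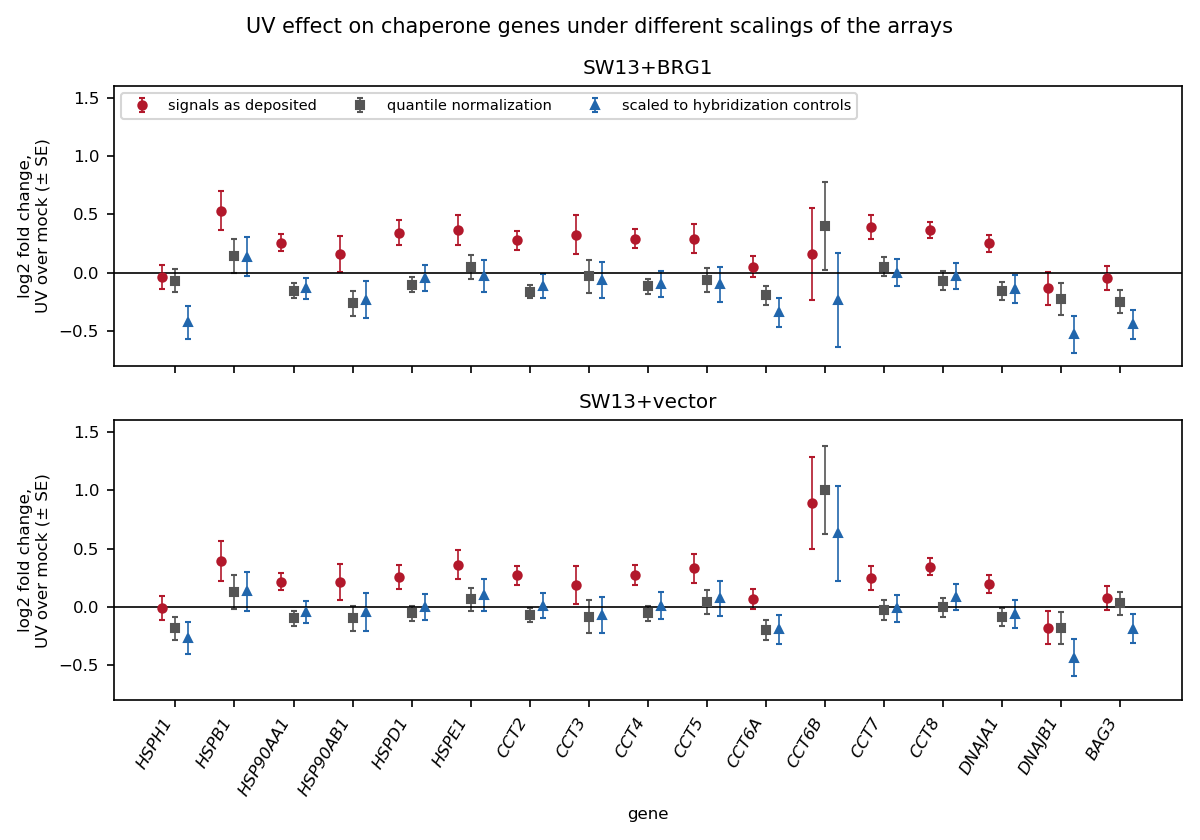
Log2 fold change of UV over mock (± SE) for 17 chaperone genes in SW13+BRG1 (top) and SW13+vector (bottom), with the signals as deposited, after quantile normalization and after scaling to the hybridization controls. Most chaperonin genes lie above 0 as deposited and near or below 0 under both other scalings. HSPH1, DNAJB1 and BAG3 lie near or below 0 in SW13+BRG1 under all 3.

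HSPA2 was higher after UV in SW13+vector (1.64-fold, 0.71 ± 0.13, adjusted p = 0.00287). This kept its direction under every alternative, with values from 0.45 to 0.81, but missed the threshold in 2 of 26 alternatives, scaling to the hybridization controls (adjusted p = 0.0549) among them. In SW13+BRG1 its change was 0.39 ± 0.13 (adjusted p = 0.0492), which 19 of 26 alternatives lost.

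More plainly lower after UV were DNAJC6 and DNAJC16. DNAJC6 had signals of 85.8, 67.7 and 70.9 after UV and 148, 150 and 122 after mock in SW13+BRG1, and 138, 133 and 122 after UV and 376, 371 and 259 after mock in SW13+vector. UV and mock arrays did not overlap within a line. It was 1.87-fold lower after UV in SW13+BRG1 (-0.91 ± 0.19, adjusted p = 0.00525) and 2.52-fold lower in SW13+vector (-1.33 ± 0.19, adjusted p = 0.000908). DNAJC16, an ER J protein, had signals of 124, 108 and 94.8 after UV and 208, 243 and 201 after mock in SW13+BRG1, and 101, 89.7 and 92.8 after UV and 174, 185 and 155 after mock in SW13+vector. It was 2.01-fold lower in SW13+BRG1 (-1.0 ± 0.17, adjusted p = 0.00145), a fold that slipped under 2 without SW13+BRG1 UV replicate 3 or SW13+BRG1 mock replicate 2, and 1.81-fold lower in SW13+vector (-0.86 ± 0.17, adjusted p = 0.00606). DNAJA3 was lower after UV in SW13+BRG1 (-0.62 ± 0.10, adjusted p = 0.00111). In SW13+vector it stood at -0.35 ± 0.10 (adjusted p = 0.0381), which 14 of 26 alternatives lost. BAG2, BAG4 and DNAJB12 also passed as lower in SW13+BRG1, at -0.48 ± 0.14, -0.65 ± 0.19 and -0.60 ± 0.16, each lost in 6 to 8 of 26 alternatives. Of the other lists, CLPX was called lower after UV in SW13+BRG1 (-1.12 ± 0.25, adjusted p = 0.00588).

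No chaperone gene passed the test for a UV effect that differed between the lines. For the interaction, the difference of the UV effects, 0 of 75 genes passed in limma in either direction, against backgrounds of 0.029% higher and 0.0653% lower, and the lowest adjusted p was 0.618. At an unadjusted p under 0.05 there were 2, DNAJB12 (-0.70) and DNAJC30 (0.57), against a background of 5.48%. The UV effects of the 2 lines, which share no arrays, had the same sign in 59 of the 75 genes, and 4 of the 10 genes that passed as higher in SW13+BRG1 were among the 5 in SW13+vector. These effects correlated at 0.667 over the 75 genes and at 0.510 over all tested genes, whose shared signs were not counted. IER5 had the widest split among the other targets of heat shock factor, with -0.48 ± 0.16 in SW13+BRG1 (adjusted p = 0.0475) and 0.79 ± 0.16 in SW13+vector (adjusted p = 0.00513), and a difference of -1.27 ± 0.22 that missed the threshold (adjusted p = 0.0605).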

How the data were processed

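Total RNA of SW13+BRG1 and SW13+vector cells was hybridized by the authors to Affymetrix U133 Plus 2.0 arrays, 3 for each of 4 groups. The deposited values are signal intensities on a linear scale for 54675 probe sets, summarized by the authors with MAS at default settings and scaled to a mean target of 125 on each array. The MAS version was not stated. The methods call the arrays of a group independent biological replicates. The number of arrays limits the precision. The labels number the experiments in each group, so the number entered an alternative fit as a replicate block. Deviations from the group means correlated at 0.0759 to 0.278 between same-numbered arrays, and at 0.226 to 0.278 between those numbered 3. For numbers 1 and 2 they correlated at 0.0759 to 0.141 between same-numbered arrays. Between an array numbered 1 and one numbered 2 they correlated at 0.0547 to 0.117. Arrays numbered 3 correlated below 0 with the other numbers. Deviations within a group sum to 0, so positive values between arrays numbered 3 bring negative ones with them.

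Intensities were taken to log2 without further normalization. Probe sets at or above the array median on at least 3 of 12 arrays were kept (32622), and the brightest one with a single gene stood for that gene. A fit with limma (version 3.58.1, R version 4.3.3) used 4 group means and a variance trend, and Benjamini-Hochberg adjustment ran over 13784 genes. It was tested on simulated data. Values after ± are SE for log2 fold changes and SD for signals. The members, the lists and the promoter motif were chosen with earlier results of these data known. Always named were a heat-inducible core (HSF1, HSF2, HSPA1A, HSPA1B, HSPA8, HSPH1, HSP90AA1, HSP90AB1, HSPB1, HSPD1, HSPE1, DNAJA1, DNAJB1, BAG3), then each called member (at most 12 a direction), and at most 4 called genes of each other list. Other named genes, among them HSPA6, HSPA9, HSPA14, HSPA4, the TRiC genes and STIP1, were picked after their values were seen. Alternatives covered scaling (quantile, common median, hybridization controls), the filter, an offset of 16, the probe set rule, the variance trend, the arrays fitted, the adjustment, the replicate block, each array left out, and the methods' t-test, an unequal-variance test on the same log2 values. Promoter windows are from RefSeq (GRCh38.p14), with 10 members not in that table.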

Additional observations from a re-analysis of the deposited data

How the results depend on the processing

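Without a fold threshold the called counts are those that passed. They are, higher and lower in SW13+BRG1, 10 and 21 after UV, and in mock 7 (not over 1.5 times the 6 called) and 23. For UV over mock they are 10 and 6 in SW13+BRG1 and 5 and 3 in SW13+vector. With the methods' t-test and adjustment, 3 genes were called higher and 5 passed as higher in SW13+BRG1 after UV, with 8 passing as lower. In mock, 1 was called higher and 1 lower, and 2 passed as higher and 8 as lower. For UV over mock that test left 0 in every count that had any. Without adjustment it gave 10 higher after UV in SW13+vector. Averaging the probe sets of a gene left 3 called higher in SW13+BRG1 after UV.

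For UV over mock in SW13+BRG1, the 10 genes that passed as higher became 2 after quantile normalization, 1 with a common median, 0 with hybridization controls, 3 with only the compared arrays fitted, 4 with no filter and 0 with no variance trend. The 5 in SW13+vector became 2, 1, 0, 2, 3 and 1 under the same alternatives, and 3 when adjusted over probe sets. The 1 gene called lower in SW13+BRG1 became 0 with a common median, after quantile normalization and with the offset of 16. Hybridization controls gave 4 called and 11 passed lower in SW13+BRG1, 2 and 5 in SW13+vector, and 5 called lower between lines after UV. That scaling moved the median of all genes by -0.36 (UV in SW13+BRG1), -0.23 (UV in SW13+vector), -0.16 (lines after UV) and -0.13 (interaction). The cause of these shifts was not tested.

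The UV effect in SW13+BRG1 changed sign with hybridization controls for HSPD1 (-0.049), CCT8 (-0.026), CCT4 (-0.10), DNAJA1 (-0.14), CCT2 (-0.11), HSPA2 (-0.00576) and HSP90AA1 (-0.13). After quantile normalization it did for HSPD1 (-0.10), CCT8 (-0.0697), CCT4 (-0.12), DNAJA1 (-0.16), CCT2 (-0.16) and HSP90AA1 (-0.15), and in SW13+vector for CCT8 (-0.00218), CCT4 (-0.0541) and CCT2 (-0.0702).

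With the replicate block, 11 genes passed as higher in SW13+BRG1 in mock, and for UV over mock 19 as higher in SW13+BRG1, and 20 as higher and 6 as lower in SW13+vector. Of 118 values followed for named genes, 12 passed only with the block and 0 lost their call. Without the arrays numbered 3, chosen after seeing the data, 14 passed as higher in SW13+BRG1 in mock, and for UV over mock 20 as higher and 12 as lower in SW13+BRG1, and 21 and 13 in SW13+vector. Shares over all tested genes were not counted for the block or for this fit.

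With 1 array left out, 4 to 5 genes were called higher in SW13+BRG1 after UV and 2 to 4 lower, with 8 to 10 and 21 to 22 passing. In mock these were 4 to 6 and 2 to 4, with 7 to 8 and 19 to 23 passing. For UV in SW13+BRG1 they were 0 to 1 and 0 to 2, with 1 to 12 and 4 to 7 passing, and in SW13+vector 0 and 1, with 2 to 8 and 2 to 4 passing. Interaction counts stayed at 0 in all of these.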
